A study of Solanum lycopersicum with 27 samples.

Results

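The jasmonate ZIM-domain (JAZ) genes encode the repressors of jasmonate signalling, and 10 of them, JAZ1 to JAZ7 and JAZ9 to JAZ11, were followed here through chilling of tomato seedlings. They were picked out by gene ID, with earlier results of these data known. The IDs were Solyc07g042170 (JAZ1), Solyc12g009220 (JAZ2), Solyc03g122190 (JAZ3), Solyc12g049400 (JAZ4), Solyc03g118540 (JAZ5), Solyc01g005440 (JAZ6), Solyc11g011030 (JAZ7), Solyc08g036640 (JAZ9), Solyc08g036620 (JAZ10) and Solyc08g036660 (JAZ11). The study's annotation calls JAZ2 TIFY10A and JAZ9 TIFY5A, after Arabidopsis relatives. All 10 members were present among the 20545 features of the shoot table and the 20680 features of the root table, and all 10 passed the filter for testing, 10 or more normalised counts in 3 or more libraries of the organ.

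Jasmonates are lipid-derived hormones of wounding, herbivory and other stresses. Without hormone, JAZ proteins bind MYC-type basic helix-loop-helix transcription factors and bring corepressors to their target genes. The active hormone, a conjugate of jasmonate with isoleucine, joins the JAZ protein to the receptor COI1, and the repressor is degraded. Most JAZ genes are themselves targets of the released MYC factors, so their transcripts commonly rise soon after jasmonate signalling begins, which is why they are widely read as marker transcripts of the pathway. In Arabidopsis, TIFY10A is the repressor JAZ1, whereas TIFY5A is JAZ8, a repressor that lacks the usual degron and resists degradation.

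The plants were of the tomato cultivar M82, with no transgene, grown in hydroponics to an age of 18 days. T0 tissue was taken before treatment, and the remaining plants were moved to fresh containers in the light at either 4°C or 24°C. Shoots were sampled at T0 (6 libraries), and at 30 min and 3 h at each temperature (3 libraries each). Roots were sampled at T0 and at 3 h at each temperature (3 libraries each), and each library came from pooled seedlings. The study describes its shoots and roots as taken from the same plants, so the organs are not shown to be independent. The 24°C plants differ from T0 by the transfer and by the later hour of the day, and these cannot be told apart. The values are TMM-normalised read counts, scaled within each organ, so shoot and root levels were not tested against each other. In a bulk sample, fewer cells of a type and less RNA per cell cannot be told apart.

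The shoot libraries summed to between 20328938 and 20332140 normalised counts and the root libraries to between 37775630 and 37777083, so the original depth is not visible in these values. The 4 shoot marker IDs, chosen as photosynthesis genes, lay between 53034 and 245693 in shoots and between 37.4 and 1561 in roots. Of the 3 root marker IDs, 2 were listed, both in the root table alone. The organelle share of the counts rose with cold in shoots, to between 6.75% and 6.8% at 3 h at 4°C against 0.269% to 0.343% at 24°C. After rescaling to the nuclear genes, the members called between 4°C and 24°C at 3 h went from 5 to 3 in shoots and stayed at 7 in roots. The median of all genes was shifted by -0.28 on the log2 scale at 4°C against 24°C at 3 h in shoots, by -0.07 at 30 min and by -0.11 in roots.

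The shoot T0 libraries need care. The sample labels name no batch, and by the study's account 3 of them belong to a batch with the 3 h libraries (batch 1) and the other 3 to a batch with the 30 min libraries (batch 2). Which replicates these are was inferred as 1 to 3 and 4 to 6 from its sequencing summary, where bases per read match in that way while the run names do not clearly place the 3 h libraries. Each time was compared with the T0 libraries inferred to be of its own batch. The sample labels hold 6 T0 shoot libraries, while the extraction text beside them speaks of 3 T0 shoot samples. Deviations from the group mean over all genes matched by position, with r = 0.45 for replicates 1 and 4, 0.38 for 2 and 5 and 0.70 for 3 and 6, against -0.55 to 0.23 between other positions. The 2 sets of T0 libraries are therefore not shown to be independent of each other. JAZ transcripts were also unusually low in replicates 3 and 6, as described further on, and results that rest on these libraries are given with and without them.

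Of the 10 members, 6 had the largest log2 differences between 4°C and 24°C within each organ, namely JAZ1, JAZ2, JAZ3, JAZ9, JAZ10 and JAZ11. JAZ6 was called in both organs at 3 h with opposite signs, and JAZ4, JAZ5 and JAZ7 were called in neither. The uncalled differences of JAZ4 and JAZ5 also had opposite signs in the 2 organs, and that of JAZ7 in roots was 1.96. At 3 h in shoots, 4 members were higher in the cold (JAZ1, JAZ2, JAZ9 and JAZ11) and 1 was lower (JAZ6), at an adjusted p under 0.01. Over all genes tested in that comparison, 39.5% were called, 9.63% higher and 29.9% lower. After rescaling to the nuclear genes these shares were 15.5% and 13.2%, and 3 members (JAZ1, JAZ2 and JAZ9) were called higher and 0 lower. At 3 h in roots, 7 members were higher in the cold (JAZ1, JAZ2, JAZ3, JAZ6, JAZ9, JAZ10 and JAZ11) and 0 were lower, where 46% of all genes were called, 18% higher and 28% lower, or 23% and 22.2% after rescaling. The median log2 difference of the 10 members was 1.79 in shoots at 3 h, against -0.28 for all genes, and 3.24 in roots, against -0.11 for all genes.

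**Figure D1:**
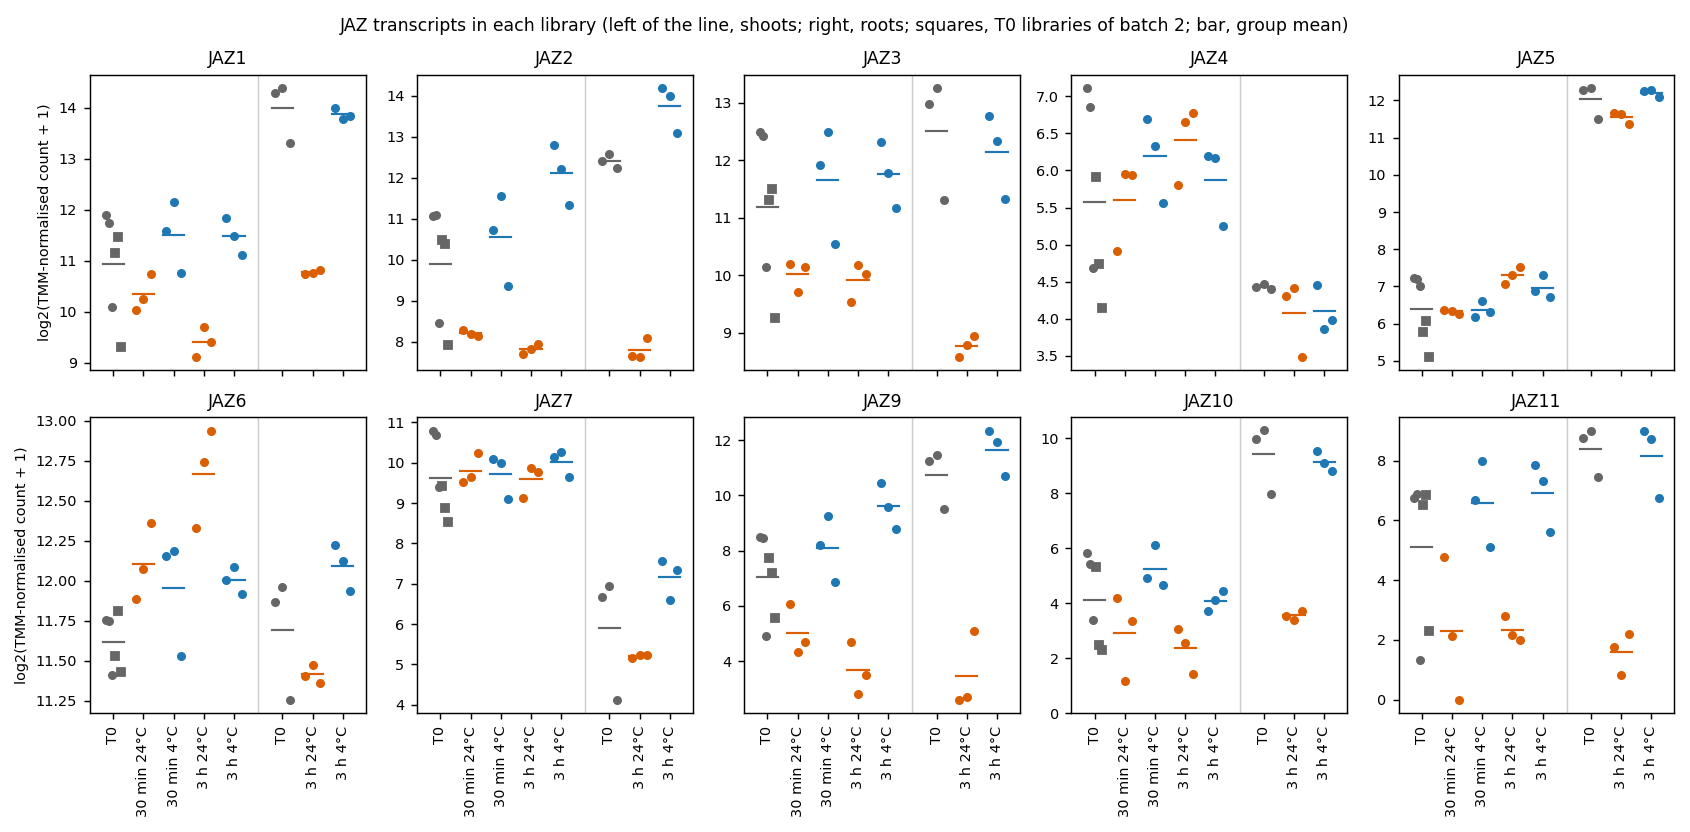
Each point is 1 library, as log2(TMM-normalised count + 1), with shoots left of the grey line and roots right of it, T0 in grey, 24°C in orange and 4°C in blue. In roots the 24°C libraries of JAZ1, JAZ2, JAZ3, JAZ9, JAZ10 and JAZ11 lie below all 4°C and all T0 libraries.

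JAZ2 (TIFY10A), one of the repressors, was higher in the cold in both organs. Its 3 shoot libraries at 3 h at 4°C held 7151, 4727 and 2589 normalised counts, and those at 24°C held 206, 223 and 246. The groups were far apart, and the lowest cold library stood above every T0 library of either batch. The log2 difference was 4.30 ± 0.68 (SE, n = 3 per group, limma adjusted p = 4.01e-05), a ratio of means of 21.4. In roots JAZ2 held 18750, 16400 and 8773 at 4°C against 200, 197 and 272 at 24°C. The groups did not overlap, and the log2 difference was 5.97 ± 0.25 (SE, limma adjusted p = 1.75e-07), a ratio of 65.7. This call and that in shoots held in every alternative run, with adjusted p between 1.66e-11 and 0.000799 in shoots and between 2.25e-08 and 5.89e-06 in roots.

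JAZ9 (TIFY5A), a repressor whose Arabidopsis namesake is stable against degradation, had the largest log2 differences of the 10 members at 3 h in both organs. Shoots at 3 h held 1411, 764 and 445 at 4°C and 25.05, 5.96 and 10.4 at 24°C. No 24°C library came near a cold one, and the log2 difference was 5.94 ± 0.84 (SE, limma adjusted p = 1.26e-05). In roots JAZ9 held 5174, 3867 and 1648 at 4°C and 5.12, 5.55 and 32.8 at 24°C. The 24°C replicate 3 was the high one of its group and still lay far below the cold libraries. The root difference was 8.18 ± 0.74 on the log2 scale (limma adjusted p = 1.57e-05), but with 24°C values this low the fold depends on the constant of 1 added before the logarithm.

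JAZ11, another JAZ repressor, was low at 24°C. Its shoot libraries at 3 h held 229, 160 and 48.3 at 4°C and 5.99, 3.45 and 3.02 at 24°C. The groups did not overlap, and the difference of 4.61 ± 1.39 on the log2 scale passed narrowly (SE, limma adjusted p = 0.00967). It failed the threshold in 14 of 31 alternatives, with adjusted p from 1.24e-06 to 0.0418, including after rescaling (0.0105) and without any 1 of the 6 libraries compared. In roots JAZ11 held 506, 423 and 107 at 4°C and 2.37, 0.759 and 3.57 at 24°C, a log2 difference of 6.57 ± 0.63 (SE, limma adjusted p = 2.24e-05). The root call held in all 18 alternatives run.

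JAZ1 was abundant in both organs. Its shoot libraries at 3 h held 3650, 2872 and 2202 at 4°C against 553, 828 and 675 at 24°C. The cold libraries were all higher, by 2.07 ± 0.49 on the log2 scale (SE, limma adjusted p = 0.00166), although the call was lost without 3 h 4°C replicate 1 and with robust moderation, where the highest adjusted p was 0.0105. In roots JAZ1 held 16291, 14083 and 14536 at 4°C against 1717, 1719 and 1803 at 24°C. The groups did not overlap, and the log2 difference was 3.10 ± 0.23 (SE, limma adjusted p = 5.01e-06), a ratio of 8.57.

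JAZ3 differed in both organs but was called in roots alone, and the difference between organs was not tested. Its shoot libraries at 3 h held 5142, 3525 and 2296 at 4°C and 742, 1158 and 1041 at 24°C. The groups did not overlap, and the log2 difference of 1.85 ± 0.60 missed the threshold (SE, limma adjusted p = 0.0151). In 9 of 31 alternatives it passed, among them those that left T0 replicate 3 or 6 out of the shared estimate of spread. In roots JAZ3 held 6967, 5183 and 2557 at 4°C and 381, 442 and 489 at 24°C. The lowest cold library lay above every 24°C library, and the log2 difference was 3.37 ± 0.49 (SE, limma adjusted p = 0.000301).

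JAZ10 was scarce in shoots at 3 h, with 12.3, 16.2 and 20.7 at 4°C and 7.40, 4.92 and 1.71 at 24°C. The groups did not overlap, yet the log2 difference of 1.73 ± 0.83 (SE) did not pass (limma adjusted p = 0.0886). In roots JAZ10 held 743, 550 and 447 at 4°C and 10.7, 9.49 and 12.2 at 24°C. There the groups were far apart, with a log2 difference of 5.599 ± 0.51 (SE, limma adjusted p = 1.57e-05), a ratio of 53.8.

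JAZ6 was lower at 4°C than at 24°C in shoots and higher at 4°C than at 24°C in roots. Its shoot libraries at 3 h held 4113, 4354 and 3863 at 4°C and 5149, 6841 and 7845 at 24°C. The groups did not overlap, and the log2 difference was -0.67 ± 0.17 (SE, limma adjusted p = 0.00334), in a comparison where the median of all genes was also shifted downwards. After rescaling to the nuclear genes it was -0.40 with an adjusted p of 0.0805, and the call was also lost with robust moderation and when 1 of 4 of the compared libraries was left out. In roots JAZ6 held 4782, 4455 and 3915 at 4°C and 2715, 2846 and 2631 at 24°C, a log2 difference of 0.68 ± 0.16 (SE, limma adjusted p = 0.00513). The root groups did not overlap, but the call was lost when 1 of 5 of the compared libraries was left out, with adjusted p of up to 0.0231. The opposite directions were not tested against each other, since the organs were normalised apart.

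The remaining 3 members did not pass the threshold in any of the 3 comparisons of 4°C with 24°C. JAZ7 in roots held 187, 96.4 and 161 at 4°C and 34.5, 36.7 and 36.7 at 24°C, a log2 difference of 1.96 ± 0.63 (SE, limma adjusted p = 0.0221) with groups that did not overlap. JAZ5 in roots held 4904, 4934 and 4325 at 4°C and 3240, 3168 and 2653 at 24°C, a difference of 0.65 ± 0.19 (SE, limma adjusted p = 0.0165), also without overlap. Both were called without root T0 replicate 3, a library outside this comparison that enters only the estimate of spread. In shoots at 3 h the log2 difference was -0.34 ± 0.22 (SE) for JAZ5 and 0.42 ± 0.34 (SE) for JAZ7, with overlapping groups. JAZ4 was low in roots, between 10.2 and 21.2 in every root library, and its difference there was 0.03 on the log2 scale with a 95% interval from -0.66 to 0.73. The interval for JAZ4 in shoots at 3 h ran from -1.70 to 0.62.

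**Figure D2:**
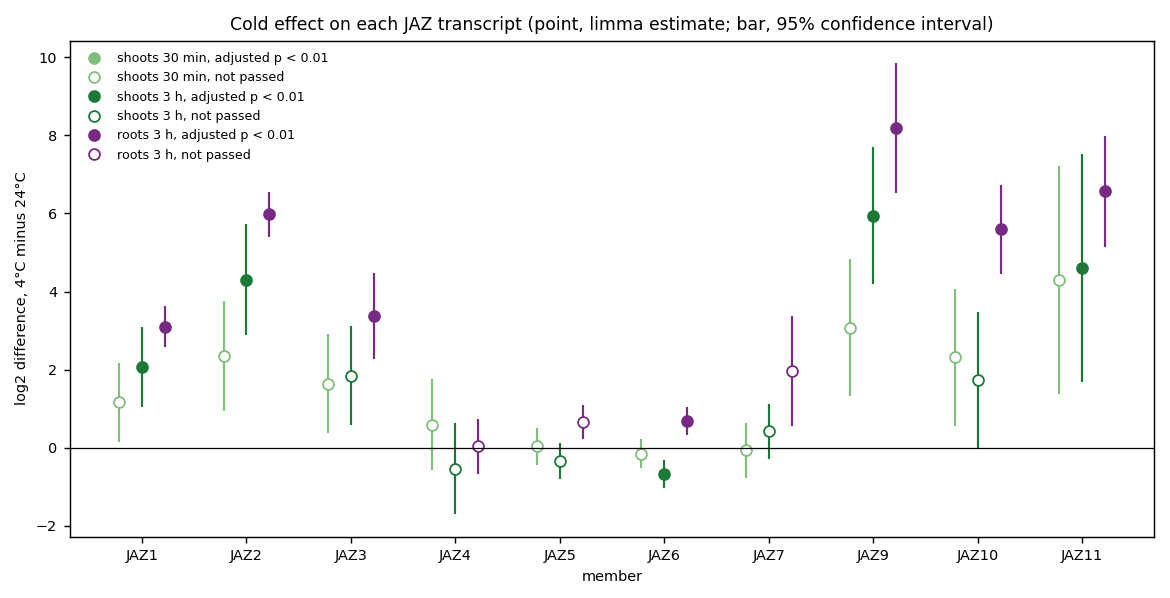
Log2 difference between 4°C and 24°C for each member, with 95% confidence intervals, in shoots at 30 min, shoots at 3 h and roots at 3 h; filled points passed an adjusted p of 0.01. JAZ9 has the largest estimate at 3 h in both organs, 5.94 in shoots and 8.18 in roots, and JAZ6 lies at -0.67 and 0.68.

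In roots, 9 of the 10 members had groups that did not overlap and were higher in the cold, against 27.6% of all genes. In shoots at 3 h this held for 6 members, against 15.5% of all genes, and JAZ6 was the 1 member without overlap in the other direction, against 50.9%. The 6 were JAZ1, JAZ2, JAZ3, JAZ9, JAZ10 and JAZ11, all among the 9 in roots, and JAZ4 was the member that overlapped in roots.

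At 30 min in shoots 0 of the 10 members were called, where 6.07% of all genes were called in either direction. An unadjusted p under 0.05, a threshold for which no share of all genes is given here, was reached by 6 members. Those 6 (JAZ1, JAZ2, JAZ3, JAZ9, JAZ10 and JAZ11) were also higher in each cold library than in any 24°C library, against 7.97% of all genes. JAZ2 held 1695, 3027 and 654 at 4°C and 312, 290 and 280 at 24°C, a log2 difference of 2.35 ± 0.68 (SE, limma adjusted p = 0.0288). JAZ9 held 298, 603 and 116 at 4°C and 65.9, 19.3 and 24.9 at 24°C, a difference of 3.08 ± 0.84 (SE, limma adjusted p = 0.0212). In both genes cold replicate 2 was the high one and replicate 3 the low one. JAZ11 held 102, 251 and 33.7 at 4°C and 26.2 and 3.35 at 24°C, with replicate 3 listed at 0, a difference of 4.30 ± 1.39 (SE, limma adjusted p = 0.0516). The log2 differences of JAZ1, JAZ3 and JAZ10 were 1.16, 1.64 and 2.32, with adjusted p of 0.142, 0.0876 and 0.0831, and those of JAZ4 to JAZ7 lay between -0.15 and 0.59.

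The count at 30 min depended on the low T0 libraries, which take no part in the comparison but widen the estimate of spread that all shoot groups share. With T0 replicates 3 and 6 left out, 5 members were called higher at 30 min, JAZ1, JAZ2, JAZ3, JAZ9 and JAZ11, with limma adjusted p between 0.000186 and 0.00463. Calls over all genes went from 1246 to 1579. This setting was chosen after the low JAZ values of these libraries were seen. Leaving them out narrows the spread of these very members, so the added calls are no independent support. Leaving out 30 min 4°C replicate 3 alone gave 1 called member, JAZ2. With that library left out as well as T0 replicates 3 and 6, also a later choice, the same 5 members were called, and 1801 genes in all.

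The difference between the 3 h and 30 min cold effects was tested directly in shoots, and 0 of 10 members passed, where 11.7% of all genes did. An unadjusted p under 0.05, for which no share of all genes is given, was reached by 2 members. JAZ9 had the largest gain with time, 2.87 ± 1.19 on the log2 scale (SE, limma adjusted p = 0.0892), followed by JAZ2 with 1.95 ± 0.96 (SE, limma adjusted p = 0.150). JAZ6 had a difference of -0.52 ± 0.24 (SE, limma adjusted p = 0.132), the other member past the unadjusted threshold. The cold effects at 30 min and 3 h were therefore not shown to differ for any member. In absolute level JAZ2 rose from a mean of 1792 at 30 min at 4°C to 4822 at 3 h, values that by the study's account come from 2 batches and were not tested against each other.

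The comparisons with T0 show on which side the differences arose. They share the T0 libraries with each other and the 24°C or 4°C libraries with the comparisons above, so they add no independent support. In roots, 6 members (JAZ1, JAZ2, JAZ3, JAZ9, JAZ10 and JAZ11) were higher in every T0 library than in any 24°C library. JAZ1 held 20070, 21372 and 10131 at T0, JAZ3 held 8045, 9813 and 2526, and JAZ9 held 2398, 2826 and 721. For each of these genes T0 replicate 3 was the low one, and all T0 libraries were above all 24°C libraries, a separation seen in 24.2% of all genes.

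After 3 h at 24°C, 6 members were lower in roots than at T0 (JAZ1, JAZ2, JAZ3, JAZ9, JAZ10 and JAZ11) and 0 were higher, where 40.1% of all genes were called, 16.2% lower and 23.9% higher, or 20% and 18.5% after rescaling. The log2 difference was -7.26 ± 0.74 for JAZ9, -6.82 ± 0.63 for JAZ11, -5.87 ± 0.51 for JAZ10, -4.62 ± 0.25 for JAZ2, -3.74 ± 0.49 for JAZ3 and -3.22 ± 0.23 for JAZ1 (SE, n = 3 per group, limma adjusted p of at most 0.000191). After 3 h at 4°C only JAZ2 differed from T0, by 1.36 ± 0.25 (SE, limma adjusted p = 0.00887), where 4.79% of all genes were called. JAZ2 held 5405, 6136 and 4811 at T0, all below its cold libraries, against 16.8% of all genes. That call was lost in 11 of 18 alternatives, among them rescaling (adjusted p = 0.0102) and the removal of any 1 of 7 libraries. Without the low root T0 replicate 3, JAZ1 (-0.47) and JAZ10 (-0.998) were called lower in the cold than at T0, beside JAZ2. Leaving this library out raises the T0 level of JAZ1 and JAZ10, so their calls are no independent support.

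In shoots at 3 h, 4 members differed between 24°C and the T0 libraries of the same batch, where 25.6% of all genes did (14.7% higher and 10.9% lower, or 9.77% and 13.4% after rescaling). The log2 difference was -3.61 ± 0.84 for JAZ9, -2.39 ± 0.68 for JAZ2 and -1.84 ± 0.49 for JAZ1, while JAZ6 was higher by 1.03 ± 0.17 (SE, n = 3 per group, limma adjusted p of 0.00229, 0.00918, 0.00608 and 0.000113). Between 4°C and T0, 0 of 10 members were called, where 14.1% of all genes were. An unadjusted p under 0.05, for which no share of all genes is given, was reached by 3 members. These were JAZ2 with 1.91 ± 0.68 and JAZ9 with 2.33 ± 0.84 (SE, limma adjusted p of 0.0494 and 0.0528), and JAZ6 with 0.36 ± 0.17 (SE, limma adjusted p = 0.142). The cold libraries of these 3 all lay above T0, against 10.3% of all genes.

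These shoot values again turned on T0 replicate 3. Without it, 8 members differed between 3 h at 24°C and T0, of which 7 were lower (JAZ1, JAZ2, JAZ3, JAZ7, JAZ9, JAZ10 and JAZ11) and JAZ6 was higher. Leaving out a library low in these very members raises their T0 level and narrows their spread, so the added calls are no independent support. With T0 replicates 3 and 6 both left out the count was again 8. Calls over all genes were then 5089, against 5263 in the main run. Without T0 replicate 1 or 2, or without 3 h 24°C replicate 2 or 3, 1 member was called, and it was JAZ6. JAZ6 held 3461, 3447 and 2722 at T0 of batch 1, below each of its 24°C libraries at 3 h, a separation seen in 36.1% of all genes. Set against T0 replicates 4 to 6 instead, 3 members differed at 24°C (JAZ5 and JAZ6 higher and JAZ9 lower) and 2 at 4°C (JAZ2 and JAZ5, both higher). Far more of the 20535 genes were also called in that setting, 9377 at 24°C and 7065 at 4°C. In the main run these were 5263 and 2888, so the member counts do not stand out.

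At 30 min, 0 of 10 members differed from T0 at 4°C, where 7.1% of all genes did, and 0 differed at 24°C, where 8.49% did. The counts at an unadjusted p under 0.05 were 5 members at 4°C, all higher, and 5 at 24°C, of which 3 were higher and 2 lower. The shares of all genes above are at the stricter adjusted threshold and are no measure for these counts. JAZ5 was above T0 by 0.71 ± 0.22 at 4°C and by 0.67 ± 0.22 at 24°C (SE, limma adjusted p of 0.0383 and 0.0440), with no overlap in either comparison, against 8.11% and 15.5% of all genes. Set against T0 replicates 1 to 3 the direction for JAZ5 turned, to -0.79 at 4°C and -0.83 at 24°C (limma adjusted p = 0.00661 at 24°C). With T0 replicates 3 and 6 left out, a choice made after their low JAZ values were seen, JAZ2 and JAZ11 were called lower at 24°C than at T0. Calls over all genes were then 1688, against 1743 in the main run.

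**Figure D3:**
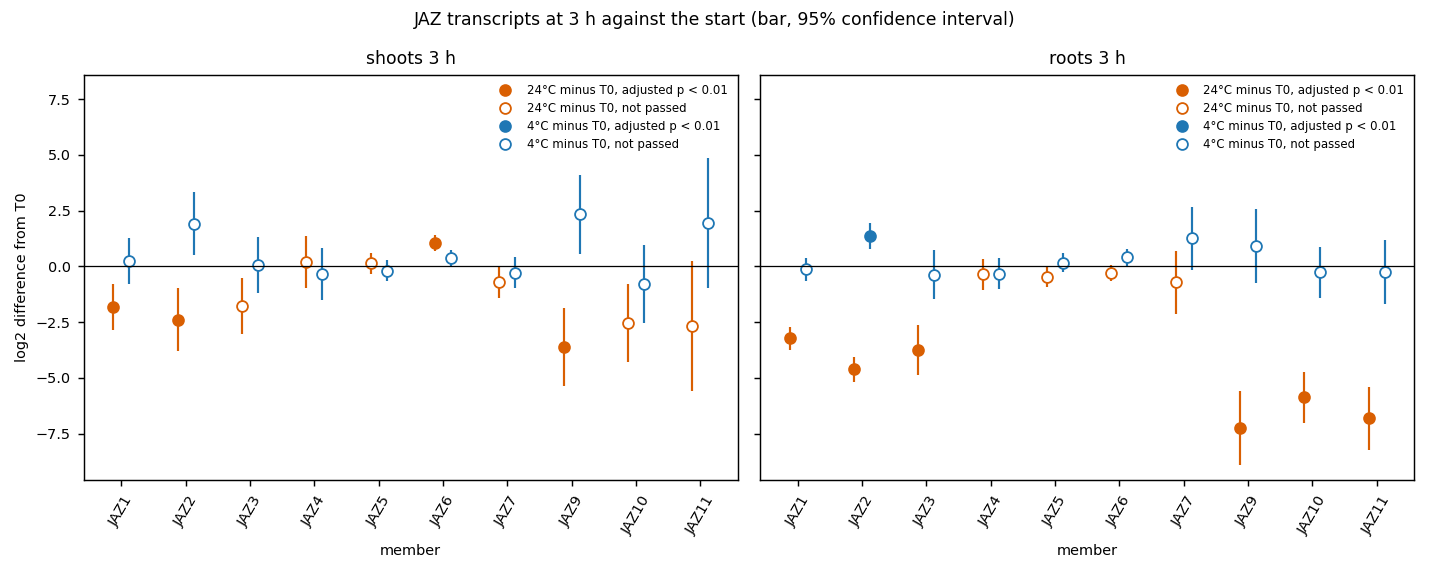
Log2 difference from T0 at 24°C (orange) and 4°C (blue) after 3 h, with 95% confidence intervals, in shoots (against T0 replicates 1 to 3) and roots; filled points passed an adjusted p of 0.01. In roots 6 members lie between -7.26 and -3.22 at 24°C, while at 4°C all 10 lie between -0.37 and 1.36.

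The study sorts called genes by their mean level against T0: cold-induced or cold-repressed where the 4°C mean passes a cutoff (1.5-fold for the 30 min samples and 2-fold for the 3 h samples), static where the 24°C mean alone does, and indeterminate where neither does. By this rule, taking every T0 library of an organ together, 3 called members in shoots at 3 h were induced, JAZ2 (4°C to T0 ratio 3.76), JAZ9 (4.58) and JAZ11 (2.01). JAZ1 and JAZ6 were static, with 24°C to T0 ratios of 0.293 and 2.10 in opposite directions. In roots JAZ2 was induced (2.69), JAZ6 was indeterminate, and 5 members were static, JAZ1, JAZ3, JAZ9, JAZ10 and JAZ11. The 24°C to T0 ratios of the 5 ranged from 0.00597 for JAZ11 to 0.102 for JAZ1, and their 4°C to T0 ratios from 0.687 for JAZ10 to 1.80 for JAZ9. JAZ11 in shoots sat at the cutoff and became static against T0 of its own batch (1.92), and JAZ9 in roots became induced at a cutoff of 1.5. At 30 min no member was called, so none was sorted.

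JAZ levels differed between replicate libraries of 1 group more than most genes did. At shoot T0 in batch 1 the median SD of the members was 1.32 on the log2 scale, against 0.126 for all genes, whose 95th percentile was 0.649. It was 1.15 in T0 of batch 2, 0.736 at 30 min at 4°C and 0.720 in root T0, against 0.172 in roots at 24°C, where the median of all genes was 0.117. JAZ11 in shoots, for example, held 108, 118 and 1.54 in batch 1 and 89.98, 114 and 3.93 in batch 2.

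The spread ran in the same direction through nearly the whole family. All 10 members were below their group mean in shoot T0 replicates 3 and 6, in 30 min 4°C replicate 3 and in root T0 replicate 3, and 9 of 10 were in 3 h 4°C replicate 3 of each organ. Against the mean of the other 2 libraries of its group, T0 replicate 3 was at least 2-fold lower for 8 of 10 members, against 3.28% of all genes, with a median of -2.27 on the log2 scale. The same held for 7 members in T0 replicate 6 (3.99% of all genes), 5 in 30 min 4°C replicate 3 (3.15%) and 6 in root T0 replicate 3 (3.62%). JAZ5 and JAZ6 did not reach a 2-fold drop in any of these 4 libraries. On the log2 scale JAZ5 ranged from -0.82 to -0.08 and JAZ6 from -0.66 to -0.24. By the study's account shoots and roots came from the same plants, but which libraries share plants was not settled here. What else these libraries share beside the number 3 or 6 is not given in the sources used here.

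The wider jasmonate list was low in the same libraries. At least 2-fold lower were 8 of 23 listed genes in shoot T0 replicate 3, 7 of 23 in replicate 6, 10 of 23 in 30 min 4°C replicate 3 and 7 of the 20 tested in root T0 replicate 3. Libraries at 24°C showed no such shift, with medians of the members between -0.39 and 0.29 against the other 2 libraries of the group.

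**Figure D4:**
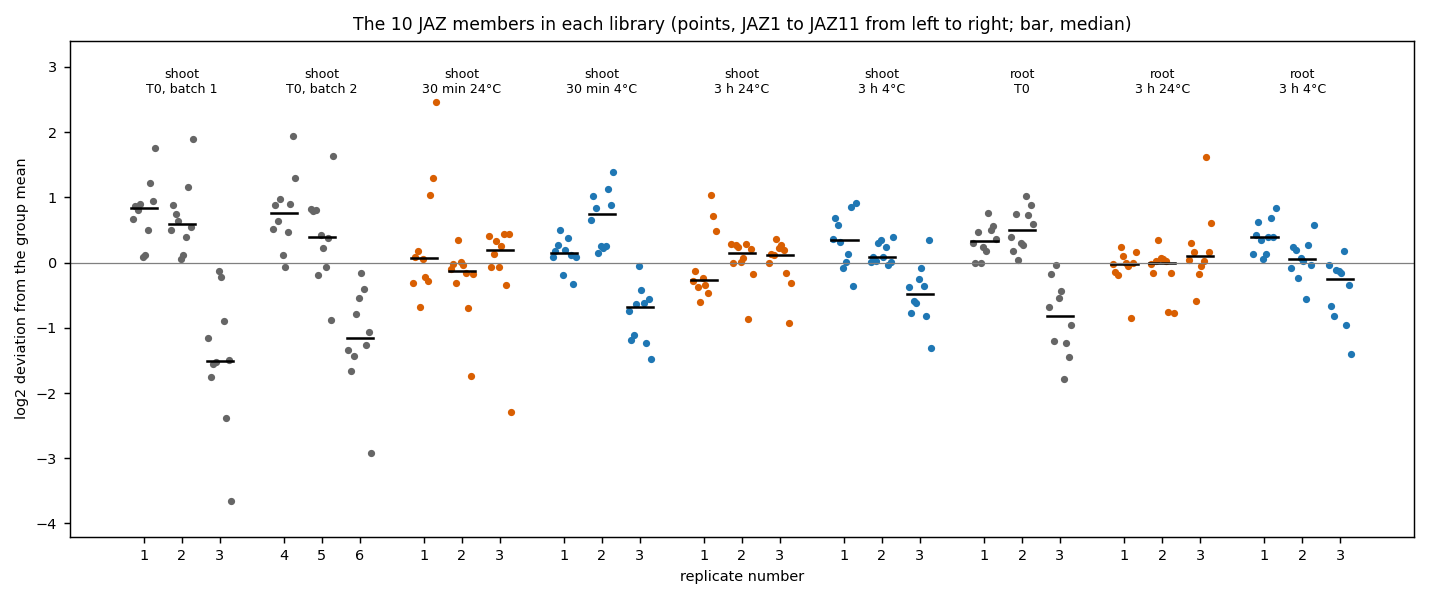
Deviation of each member (points) from its group mean on the log2 scale in every library, with the median over the members as a bar. The bars of T0 replicates 3 and 6 in shoots and T0 replicate 3 in roots lie at -1.51, -1.16 and -0.83, and those of the 24°C libraries lie between -0.26 and 0.19.

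The T0 batches also differed in 2 members without any treatment. JAZ5 held 150, 147 and 129 in batch 1 and 53.7, 66.8 and 33.6 in batch 2, a log2 difference of -1.50 ± 0.22 (SE, limma adjusted p = 4.98e-05). JAZ7 held 1771, 1653 and 677 in batch 1 and 681, 468 and 371 in batch 2, a difference of -1.35 ± 0.34 (SE, limma adjusted p = 0.00421). The JAZ5 groups did not overlap, against 31.2% of all genes, and the JAZ7 groups did, by 1 library, and 23.5% of all genes were called between these batches.

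The members fell into sets by how they varied over the libraries, given here as a description since libraries of 1 group share their treatment. Over the 18 shoot libraries JAZ1, JAZ2, JAZ3, JAZ9 and JAZ11 had pairwise r between 0.82 and 0.96, and JAZ6 was negatively correlated with each of them, between -0.39 and -0.14. JAZ4 and JAZ7 went together in shoots (r = 0.82). Over the 9 root libraries JAZ1, JAZ2, JAZ3, JAZ9, JAZ10 and JAZ11 had pairwise r between 0.919 and 0.999, JAZ5, JAZ6 and JAZ7 between 0.88 and 0.94, and JAZ4 at most 0.34 with any member. JAZ5 held between 33.6 and 182 in shoots and between 2653 and 5148 in roots, values scaled in separate tables and so not compared by a test.

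Among 13207 other genes with a mean of at least 100 in both organs, those most like each member were found by the smaller of the shoot and root correlations. For JAZ2 these were Solyc07g053230 (annotated MYB15 by the study; r = 0.98 in shoots and 0.98 in roots), Solyc07g063940 (PAT1) and Solyc08g076390, and the same 3 genes were nearest to JAZ9. For JAZ1 the nearest was Solyc02g083850 (CPK16, r = 0.96 and 0.98), for JAZ3 Solyc07g062080 (0.95 and 0.99) and for JAZ11 Solyc03g116890 (WRKY40, 0.92 and 0.98). The nearest to JAZ10 was Solyc01g010660 (APK2B), with r of 0.76 in shoots and 0.99 in roots. JAZ4 had no close match, its best being 0.64 in shoots and 0.68 in roots.

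Around the repressors, a list of 23 further jasmonate genes was examined, covering hormone synthesis, the receptor complex, MYC-type factors and outputs. In roots at 3 h, 5 of the 20 tested were higher at 4°C and 4 lower, where 18% of all genes were higher and 28% lower. In shoots at 3 h, 5 of 23 were higher and 7 lower, where 9.63% of all genes were higher and 29.9% lower. At 30 min 1 was higher and 1 lower, where 6.07% of all genes were called in either direction. The median log2 differences of the list were 0.19 in roots, -0.14 in shoots at 3 h and 0.14 at 30 min. The synthesis genes did not move together in shoots at 3 h, where LOX3 and AOS were higher and Solyc02g085730 (-1.09) and Solyc11g069800 (-1.49) were lower on the log2 scale.

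The lipoxygenase gene LOX3 (Solyc03g122340), whose product catalyses an early step of jasmonate synthesis, held 13410, 9319 and 6356 in shoots at 3 h at 4°C and 1347, 1417 and 1458 at 24°C. It was higher by 2.72 ± 0.53 on the log2 scale in shoots and by 4.92 ± 0.32 in roots (SE, limma adjusted p of 0.000365 and 2.09e-06). AOS (Solyc04g079730), allene oxide synthase, which takes the next step, was higher by 4.08 ± 0.93 in shoots and by 6.04 ± 0.68 in roots (SE, limma adjusted p of 0.00134 and 5.76e-05). The AOS values of 11660, 8559 and 2912 in roots at 4°C against 92.7, 90.4 and 118 at 24°C showed the same low cold replicate 3 as JAZ2, JAZ3, JAZ9 and JAZ11. ORA47 (Solyc07g042230), in Arabidopsis an activator of jasmonate synthesis genes, was higher by 5.65 ± 0.74 in roots (SE, limma adjusted p = 0.000157), while in shoots at 3 h its means were 1.07 at 4°C and 2.58 at 24°C. LOX3, AOS and ORA47 were among the 5 listed genes called higher at 4°C in roots. Of the 20 tested there, 4 were called lower, and their root values are not given here.

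The MYC-type helix-loop-helix genes Solyc08g076930 and Solyc08g005050 encode the kind of factor that JAZ proteins hold in check. In shoots at 3 h both were higher in the cold than at ambient temperature. Their levels before treatment are not given here. Solyc08g076930 was higher by 1.75 ± 0.25 and Solyc08g005050 by 1.68 ± 0.13 on the log2 scale (SE, limma adjusted p of 1.46e-05 and 6.97e-09). Solyc08g076930 was also the 1 listed gene called higher at 30 min, by 1.08 ± 0.25 (SE, limma adjusted p = 0.00742). In roots Solyc08g005050 was higher by 2.89 ± 0.12 (SE, limma adjusted p = 1.61e-07), whereas the difference of 0.24 ± 0.21 for Solyc08g076930 did not pass. TIFY8 (Solyc06g065650), a relative of the JAZ family, went the other way in shoots, by -0.999 ± 0.17 (SE, limma adjusted p = 8.06e-05). OMR1 (Solyc09g008670), a threonine deaminase of isoleucine synthesis, was also lower there, by -3.33 ± 0.52 (SE, limma adjusted p = 3.38e-05).

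JAZ9, JAZ10 and JAZ11 carry IDs close together on chromosome 8, and the other IDs of that stretch were read beside them. Solyc08g036625, with an ID between JAZ10 and JAZ9, was higher at 4°C in roots by 4.99 ± 0.47 on the log2 scale (SE, limma adjusted p = 2.04e-05). Its difference in shoots at 3 h was 2.48 ± 0.94 (SE, limma adjusted p = 0.0333). Solyc08g036600 was lower at 4°C in both organs, with a log2 difference of -0.77 in each, and Solyc08g036615 was lower in roots, with -1.43. The neighbours thus did not move together. The library kit is not stated to keep strand, so reads of overlapping or near-identical genes in this stretch cannot be told apart, and the values of JAZ9, JAZ10, JAZ11 and Solyc08g036625 carry that uncertainty.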

How the data were processed

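RNA-seq libraries of M82 tomato shoots (18) and roots (9) were analysed. The authors mapped reads by BBMap (ITAG 3.2 nuclear build plus both organelle genomes), counted with featureCounts, and applied TMM scaling in edgeR. The deposited tables, 1 per organ, hold this normalised signal, not whole counts, so a count test could not be used and read depth cannot be read from the values. Genes reaching 10 in 3 or more libraries of an organ were tested on log2(value + 1) with limma 3.58.1 (trend, R 4.3.3), 20535 in shoots and 20680 in roots, with Benjamini-Hochberg adjustment over all of them and a call at adjusted p under 0.01, the study's threshold. Fold changes on the log2(value + 1) scale understate those of low genes. Shoots were fitted as 6 groups, with T0 replicates 1 to 3 and 4 to 6 apart, as batches inferred from the study's supplement. The batch of the root libraries is not given in the sources used here. In all, 11 comparisons were made per member where the organ allowed, and p-values measure the spread between pooled samples. Replicate numbers were not taken to pair the samples, since no 2 groups compared over treatment in the main runs had every same-number correlation over 0.1. The 30 min 4°C libraries and T0 replicates 1 to 3, set against each other only in an added alternative, did. The members, the jasmonate list and the named genes (all members, listed genes the study annotates, chromosome 8 neighbours and the nearest genes by correlation) were chosen with earlier results of these data known. Alternatives were other pseudocounts (0.5, 10), no filter, a filter of 50, rescaling over nuclear genes, robust moderation, a threshold of 0.05, a replicate block, fits of the compared libraries alone, other uses of T0 and leaving out each library. No sequences or gene lengths were used, so levels were not compared between genes.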

Additional observations from a re-analysis of the deposited data

Results flagged for a closer look

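JAZ6 was the 1 member whose difference between 4°C and 24°C at 3 h ran in opposite directions in the 2 organs with no overlap of groups in either. It was -0.67 on the log2 scale in shoots, where all 3 cold libraries were lower, and 0.68 in roots, where all 3 were higher. The difference between organs was not tested, since the tables were normalised apart. The organelle share of the counts was higher at 4°C in shoots (6.75% to 6.8% against 0.269% to 0.343%) and nearly level in roots (0.168% to 0.185% against 0.15% to 0.159%), and its part in the shoot value was measured only through rescaling to nuclear genes, which left -0.40. Among the 6 shoot T0 libraries no member had a library standing apart by the gap test, on either scale. That test looks for 1 library apart from all others. Replicates 3 and 6 were both low and hide each other in it, so it cannot decide whether they stand apart.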

How the results depend on the processing

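Over the single members, 2907 results stayed on their side of the threshold under an alternative. These include uncalled results whose sign changed, such as JAZ11 between the T0 batches in 7 alternatives. A further 94 passed the threshold and 73 lost it, and 2 reversed with a call in the main run or the alternative. Both were JAZ5 against T0, with each time set against the T0 replicates of the other inferred batch (chosen after seeing the data), 1.30 at 3 h at 4°C and -0.83 at 30 min at 24°C on the log2 scale. That setting gave 2 members for 3 h 4°C, 1 for 30 min 24°C, 3 for 3 h 24°C and 0 for 30 min 4°C. Counts of members called moved as follows, while calls over all genes moved too, as given further on. Causes were not tested. For 4°C against 24°C, shoots at 3 h went from 5 to 3 after rescaling, 2 with robust moderation, 4 with a pseudocount of 0.5 or T0 as 1 group, 6 at a threshold of 0.05 or with T0 replicates 3 and 6 left out, and 7 with the compared libraries alone, roots from 7 to 9 with the compared libraries alone or at 0.05, and shoots at 30 min from 0 to 2 at a threshold of 0.05, 2 with the compared libraries alone, and 5 without T0 replicates 3 and 6, with or without 30 min 4°C replicate 3 (alternatives chosen after seeing the data). Against T0, shoots at 3 h at 24°C went from 4 to 2 (compared libraries alone), 1 (robust) and 8 (both T0 settings), and at 4°C from 0 to 1 (threshold 0.05), 2 (mean of both T0 groups) and 1 (T0 replicates 3 and 6 and 30 min 4°C replicate 3 out). Shoots at 30 min went from 0 to 2 at 24°C (threshold 0.05), 2 and 5 (the T0 settings), and to 1 at 4°C (threshold 0.05). Roots at 4°C went from 1 to 0 with the compared libraries alone, rescaling or robust moderation. T0 batches went from 2 to 1 under those 3 and 4 with the 3 libraries out, the time difference from 0 to 1 (JAZ6) with them out, and induced root members from 1 to 2 at a cutoff of 1.5.

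Same-number r was over 0.1 for every pair between the 2 T0 sets (0.377 to 0.697) and between 30 min 4°C and T0 replicates 1 to 3 (0.112 to 0.662), but not within any other pair of groups compared, so the numbers were not taken to pair the samples. With a replicate block the counts for 4°C against 24°C were 6 in shoots at 3 h and 8 in roots, with 5 for 3 h 24°C against T0, and 3 at 30 min for 4°C against 24°C (3 also with T0 replicates 4 to 6 numbered 1 to 3), 4 for 30 min 4°C against T0, 1 for 3 h 4°C against T0 (2 renumbered) and 0 for roots at 4°C against T0.

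Leaving out each library in turn gave for 4°C against 24°C 2 to 6 members in shoots at 3 h, 0 to 2 at 30 min and 6 to 9 in roots; against T0, 1 to 8 (3 h 24°C), 0 to 0 (3 h 4°C), 0 to 0 (30 min 24°C), 0 to 1 (30 min 4°C), 6 to 9 (roots 24°C) and 0 to 3 (roots 4°C); 0 to 0 for the time difference and 1 to 3 between T0 batches. Induced members ranged from 2 to 3 (shoots 3 h), 0 to 1 (30 min) and 1 to 2 (roots), static from 0 to 4, 0 to 1 and 4 to 6, and indeterminate root members from 0 to 2. Over all genes, 4°C against 24°C at 30 min gave 1246 calls, 807 with the compared libraries alone, 713 with T0 as 1 group and 2437 at 0.05. Shoots at 3 h gave 8116, 5878 after rescaling, 5924 with T0 as 1 group, 9876 with the compared libraries alone and 10919 at 0.05. Roots gave 9503, 10328 with the compared libraries alone and 12287 at 0.05. Shoots at 3 h at 24°C against T0 gave 5263, 5972 with the compared libraries alone and 5217 with robust moderation. Roots at 4°C against T0 gave 991, 449 with the compared libraries alone, 606 with the block and 2911 at 0.05. With a filter of 50, JAZ10 in shoots and JAZ4 in roots were not tested. Read depth cannot be read from these values, so its limit on the low members could not be given.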
